A study of Rattus norvegicus with 59 samples.

Results

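The question addressed here was which lung genes respond to inhaled crystalline silica only later than 3 months after exposure. It was put to 20 of the 59 libraries of the series, the 5 silica and 5 air libraries of 3 months and the 5 and 5 of 6 months. For every gene the difference between silica and air at 6 months, minus the same difference at 3 months, was taken on log2(FPKM + 0.5) and is called the interaction. FPKM are fragments counted on a transcript, scaled by its length and by the mapped fragments of the library. All 1278 of 2887 complete entries with 4 or more libraries at an FPKM of 1 or above were tested. A gene is called where the limma p, adjusted over these 1278, was under 0.05. Some genes named below were picked after their values were seen, and the gene lists were chosen with earlier results of these data known.

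The animals were male Fischer rats of the strain F344/DuCrl, bought at 3 months of age. The silica groups breathed 15 mg/m3 of crystalline silica for 6 hours a day on 5 days in a whole-body chamber, and the control groups breathed air. A piece of lung was taken from separate rats 3 or 6 months after the exposure, and total RNA depleted of ribosomal RNA was sequenced, 1 library per rat; the p-values thus rest on differences among rats. Each time had its own air group, and the silica effects at 3 and 6 months therefore share no library. A change from 3 to 6 months within one treatment sets different cohorts of rats against each other, and time and cohort cannot be told apart there. The hour of day at which lungs were taken is not given in the sources used here.

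Inhaled silica crystals are taken up by alveolar macrophages and cleared slowly, and the lung answers with recruitment of neutrophils and macrophages, growth of alveolar type 2 cells and, in silicosis, scarring. Myeloid cells carry paired activating and inhibitory receptors, among them the leukocyte immunoglobulin-like receptors, which set how strongly they react. The lung also runs a circadian clock, in which the factor encoded by Arntl (also called Bmal1) switches on output genes such as Dbp, and nuclear receptors of the ROR family act back on Arntl through ROR elements in its promoter.

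The deposited table covers part of the genome. Of the entries whose names matched the RefSeq gene table of the assembly GRCr8, 99.3% lay on chromosome 1, and genes elsewhere were not analysed here. FPKM of the 20 libraries summed to between 12818 and 31740, and to between 12574 and 15796 without the entry LOC102553223, which took 17114 FPKM in replicate 5 of the 3-month silica group. The depth of a library relative to the others, estimated from how finely its lowest FPKM were stepped, ran from 0.748 to 1.00 in air at 3 months and from 1.04 to 1.99 in air at 6 months, which did not overlap (exact two-sided permutation p = 0.00794, n = 5 and 5); with relative depth as a covariate, an alternative chosen after seeing the data, 2 interactions were called, Dbp and Lilrb4. Between silica and air the same exact permutation test of depth gave p = 0.421 at 3 months and 0.246 at 6. Over the 40 pairs of libraries within a group, log2 values across genes had r between 0.920 and 0.982, and no pair was identical. The alveolar type 2 marker Napsa stood at 71.5 to 91.4 FPKM in the air libraries of 3 months and 84.9 to 92.6 in those of 6 months. In bulk tissue, fewer cells of a type and less RNA per cell cannot be told apart.

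Silica against air was called for 233 genes at 3 months (18.2% of tested genes), 203 higher and 30 lower, and for 353 at 6 months (27.6%), 271 higher and 82 lower. The share of calls that were higher, 87.1% at 3 months and 76.8% at 6, rested on the scaling: it was 48.1% and 58.9% after centring each library on its median and 44.5% and 46.6% after quantile normalization. The number of genes called at 6 and not at 3 months was 191 (14.9%), and 71 (5.56%) were called at 3 and not at 6. Being called at one time only is not a change between times. Silica and air libraries did not overlap for 162 tested genes (12.7%) at 3 months and for 322 (25.2%) at 6. The separations given below for single genes stand beside these shares. The interaction itself was called for 3 genes (0.235%): Dbp and Lilrb4, whose silica effect moved up (0.156%), and the unnamed entry LOC103691058, whose effect moved down (0.0782%). A further 109 genes had an unadjusted interaction p under 0.05, 112 in all (8.76%). No gene met the full rule for a late onset, which asks for a called interaction together with a call at 6 and none at 3 months. None met the mirrored rule for an early effect only.

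That count of 0 changed when a single library outside the 20 was left out. Replicate 3 of the 12-month silica group enters the fit only through the shared estimate of the spread, and stood at 0.469 FPKM of Esr1 where the other 4 of its group stood at 3.89 to 8.54. Without it, an alternative chosen after seeing the data, 7 interactions were called with limma, the 3 above and Esr1, Cd177, LOC100909700 and Il4r. Esr1 (adjusted p = 7.61e-05) and Il4r (adjusted p = 0.0370) then met the late-onset rule. With only the 4 groups of 3 and 6 months in the fit, 16 interactions were called, 5 of them late-onset: Esr1, Mrgprx3, Ifitm1, Il4r and Fuca2.

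**Figure D1:**
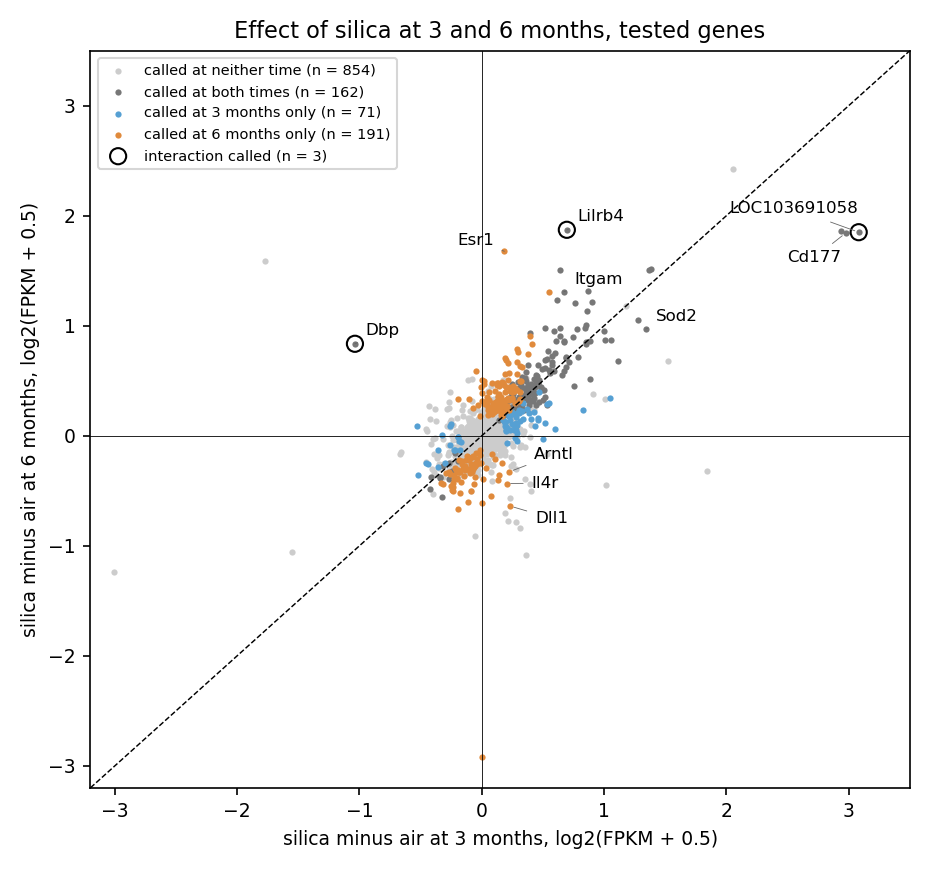
Each point is 1 of the 1278 tested genes, with the silica minus air difference at 3 months on the x axis and at 6 months on the y axis, both on log2(FPKM + 0.5); genes on the dashed line had equal effects, and 2 genes lie outside the axes. Most of the 191 genes called at 6 months only (orange) had an effect of the same sign at 3 months, while Dbp (-1.04 and 0.84), Lilrb4 (0.70 and 1.87) and Esr1 (0.18 and 1.68) lie far above the line and Cd177 (2.98 and 1.84) far below it.

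Of the 191 genes called at 6 months only, 172 (90.1%) had a difference of the same sign at 3 months, against 75.4% of all tested genes, and their median absolute effect was 0.14 at 3 months and 0.33 at 6, against 0.13 and 0.16 for all tested genes. There were 120 that rose and 71 that fell at 6 months. An unadjusted interaction p under 0.05 was reached by 50 of the 191 (26.2%), against 8.76% of tested genes; both numbers use the 6-month libraries, so the first carries no test. These 50 are called the second tier below (3.91% of tested genes), 31 higher and 19 lower at 6 months. At the median standard error of an interaction, 0.14, a log2 interaction of 0.59 was needed for a call in the fit of all 59 libraries. The fit of the 4 groups alone, with its own estimate of the spread, called interactions as small as -0.37.

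Dbp, a PAR bZIP transcription factor driven by the circadian clock, had the smallest interaction p and was the single gene called in opposite directions at the 2 times. In air at 3 months its FPKM was 3.62, 4.58, 5.17, 6.34 and 7.95 in the 5 libraries, and in silica 1.42, 2.37, 3.08, 3.15 and 2.12. At 6 months air stood at 1.62, 2.02, 1.48, 2.04 and 2.65 and silica at 2.07, 3.99, 4.27, 5.16 and 4.43. At 3 months every silica library lay below every air library, and at 6 months 4 of 5 silica libraries lay above every air library, with replicate 1 within the air range. The silica effect was -1.04 ± 0.27 (SE; limma adjusted p = 0.00557) at 3 months and 0.84 ± 0.27 (adjusted p = 0.0178) at 6 months, and the interaction was 1.87 ± 0.39 (adjusted p = 0.0165; 95% interval 1.10 to 2.65). The call was lost without replicate 1 of the 3-month silica group or replicate 4 of the 6-month silica group, with interactions of 1.73 to 2.06 over the single libraries left out. The 6-month call was lost without replicate 3 of air or replicate 4 of silica of that time.

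The air groups moved more than the silica groups in Dbp. It fell from 5.53 ± 1.67 (SD, n = 5) to 1.96 ± 0.45 FPKM in air, and limma put this difference at -1.27 ± 0.27 (SE; adjusted p = 0.00279). In silica it stood at 2.43 ± 0.72 and 3.98 ± 1.15 FPKM, a difference of 0.61 ± 0.27 that did not pass (adjusted p = 0.248). The effect of silica was 0.88 at 1 month (limma adjusted p = 0.0327) and 1.15 at 9 months (adjusted p = 0.00179), so 3 months was the time at which the sign differed from its neighbours.

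Arntl, the clock activator, moved against Dbp. Its FPKM was 7.55, 5.37, 6.30, 5.59 and 4.37 in air at 3 months and 8.39, 6.60, 6.62, 6.40 and 6.18 in silica, with overlap. At 6 months it was 8.79, 8.39, 8.21, 7.31 and 7.43 in air and 7.18, 6.70, 5.65, 6.54 and 5.50 in silica, with every silica library below every air library. The silica effect was 0.22 ± 0.12 (limma adjusted p = 0.178) at 3 months and -0.33 ± 0.12 (adjusted p = 0.0280) at 6, and the interaction of -0.55 ± 0.16 was not called (adjusted p = 0.169; unadjusted p = 0.00141). The 6-month call was lost without replicate 1, 2 or 3 of air or replicate 3 or 5 of silica of that time. In air Arntl rose by 0.45 ± 0.12 from 3 to 6 months (adjusted p = 0.0150). Over all 59 libraries Arntl and Dbp correlated at r = -0.870, given as a description, since libraries share groups and cohorts. These were the only 2 of 16 clock genes listed that were in the table and tested, so the other arms of the clock are not described.

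Near the start site of Arntl, a ROR element was found, and the 120 bases around it are shown because this element is the textbook route by which clock output returns to Arntl. The sequence is from RefSeq, GRCr8, chr1:176766208-176766327, plus strand, 5′ to 3′, with the match in capitals, 19 to 10 bases before the annotated start.
Arntl: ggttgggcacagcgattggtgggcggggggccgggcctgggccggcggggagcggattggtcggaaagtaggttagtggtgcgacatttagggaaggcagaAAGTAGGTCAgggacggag
The letters searched on both strands were AANT followed by AGGTCA for the ROR element, CACGTG for the E-box bound by Arntl and TTATGTAA for the D-box bound by Dbp, in windows from 250 bases before to 50 after each start. Of 33469 promoters, 82 (0.245%) held the first, 2148 (6.42%) the second and 299 (0.893%) the third. None of the 3 was found in the window of Dbp. A match describes letters and is not a bound site.

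Lilrb4, an inhibitory receptor of macrophages, dendritic cells and other myeloid cells, was called in the interaction with a silica effect that grew rather than began. It stood at 8.65, 9.59, 12.8, 9.67 and 8.24 FPKM in air at 3 months and at 16.8, 17.7, 15.3, 15.8 and 14.5 in silica. At 6 months air stood at 8.43, 7.69, 9.93, 7.15 and 9.20 and silica at 31.6, 29.9, 31.8, 34.8 and 33.0. Silica and air did not overlap at either time, nor did the silica libraries of 6 months with those of 3. The effect was 0.70 ± 0.19 (SE; limma adjusted p = 0.00732) at 3 months, or 1.62-fold, and 1.87 ± 0.19 (adjusted p = 2.94e-10) at 6 months, or 3.66-fold, with an interaction of 1.18 ± 0.27 (adjusted p = 0.0379; 95% interval 0.64 to 1.72). The difference lay in the silica groups: Lilrb4 rose by 0.99 ± 0.19 from 3 to 6 months in silica (adjusted p = 0.00155) and differed by -0.19 ± 0.19 in air (0.673).

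Its interaction stayed between 1.08 and 1.23 when single libraries were left out, but the call was lost in 12 of the 20 cases within the 3-month and 6-month groups, with a largest adjusted p of 0.107 over all alternatives. These were replicates 1, 3 and 4 of silica and 2, 3 and 4 of air at 3 months, and replicates 1, 3, 4 and 5 of silica and 2 and 4 of air at 6 months. Without the 12-month library named above the adjusted p was 0.000183. The similarly named entry Lilrb4-2 did not follow Lilrb4 (r = -0.175 over 59 libraries), and at 0 to 1.80 FPKM it was too low to compare.

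Other genes of the myeloid receptor list were high at both times. Of 16 tested members, 9 were called higher at 3 months (15.9% of tested genes) and 11 at 6 months (21.2%), and none lower; the median interaction was 0.22, against 0.0029 for all tested genes. Lilrb4 was the member with a called interaction. Fcar, the Fc receptor for IgA, stood at 0.451 ± 0.148 (SD, n = 5) FPKM in air and 0.951 ± 0.155 in silica at 3 months, and at 0.491 ± 0.034 and 1.90 ± 0.59 at 6. Its effects were 0.62 ± 0.16 (SE; limma adjusted p = 0.00614) and 1.24 ± 0.16 (1.16e-07), with an interaction of 0.62 ± 0.23 (unadjusted p = 0.0102), which was not called. It rose by 0.69 in silica from 3 to 6 months (adjusted p = 0.0213). C5ar2, a receptor of the complement fragment C5a, leaned the other way, with effects of 0.75 and 0.45 (interaction -0.30 ± 0.15, unadjusted p = 0.0574).

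The members called at 6 and not at 3 months were Siglec5 (0.14 and 0.36), Lilrb3 (0.22 and 0.51) and Hcst, a signalling adaptor (0.29 and 0.56), each with the same sign at both times and an unadjusted interaction p of 0.107 to 0.359. Their silica minus air differences had thus not been shown to change. Summed FPKM of the 20 myeloid receptor genes in the table ran from 175 to 203 in silica at 3 months and from 213 to 229 at 6. In air it ran from 128 to 137 and from 116 to 135. The sum is weighted to the highest members, with means over the 20 libraries of 86.5 FPKM for Tyrobp, 19.1 for Axl and 16.6 for Lilrb4. It includes the rise of Lilrb4 in silica and does not show a rise across the list.

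Neutrophil genes were also raised at both times, 6 of 7 tested at each and none lower. Over all tested genes 15.9% were called higher at 3 months and 21.2% at 6. The deposited data held 8 of the 19 genes listed, without S100a8, S100a9, Mpo or Elane. Fcar and C5ar1 also belong to the myeloid receptor list and Itgam to the macrophage list, so the lists are not separate evidence. Within the list the interactions pointed both ways. Itgam, the integrin alpha M chain of neutrophils and macrophages, stood at 3.27, 3.53, 3.80, 3.36 and 3.22 FPKM in air and 6.17, 6.07, 5.92, 5.42 and 5.24 in silica at 3 months, and at 3.40, 3.43, 3.56, 2.82 and 3.55 in air and 8.58, 8.23, 8.77, 9.72 and 9.86 in silica at 6. No air library reached a silica library at either time, and the silica libraries of 6 months all lay above those of 3. Its effect was 0.67 ± 0.20 (limma adjusted p = 0.0165) and 1.31 ± 0.20 (2.49e-06), and the interaction of 0.64 ± 0.29 had an unadjusted p of 0.0314 and was called in the 4-group fit (adjusted p = 0.000511). Plaur, the urokinase receptor, had effects of 0.87 and 1.31 (interaction 0.45 ± 0.24, unadjusted p = 0.0672).

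Cd177, a surface protein of neutrophils, had a smaller silica effect at 6 months. It stood at 5.32, 4.98, 4.04, 5.58 and 6.73 FPKM in air at 3 months and 50.4, 45.1, 47.4, 43.6 and 38.6 in silica, and at 6 months at 13.8, 8.56, 10.2, 10.8 and 14.9 in air and 46.8, 39.3, 38.8, 41.8 and 45.1 in silica. The silica libraries of both times overlapped, while every air library of 6 months lay above every one of 3 months. The silica effect was 2.98 ± 0.23 and 1.84 ± 0.23 (limma adjusted p = 2.60e-15 and 2.32e-08), and the interaction of -1.13 ± 0.32 was not called (adjusted p = 0.156), though it was without the 12-month library (0.0231). The difference lay in air, where Cd177 rose by 1.05 ± 0.23 (adjusted p = 0.00279), against -0.08 ± 0.23 in silica (0.915).

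LOC103691058, the third called entry, followed Cd177 at r = 0.990 over 59 libraries, so its call is not taken as separate from Cd177. Whether this entry is a near copy that shares reads with Cd177 was not tested. The FPKM of LOC103691058 was 4.14 to 5.97 in air and 35.0 to 48.4 in silica at 3 months. At 6 months it was 8.63 to 12.9 in air and 34.1 to 42.8 in silica. The interaction was -1.23 ± 0.29 (SE; limma adjusted p = 0.0480), and again air rose (1.05 ± 0.21, adjusted p = 0.00144) while silica differed by -0.19 ± 0.21 (0.717). The call was the least secure of the 3, kept in 2 of the 20 cases with 1 library of 3 or 6 months left out, without replicate 5 of silica or replicate 5 of air at 3 months. A second unnamed entry, LOC100909700, followed Cd177 at r = 0.999.

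**Figure D2:**
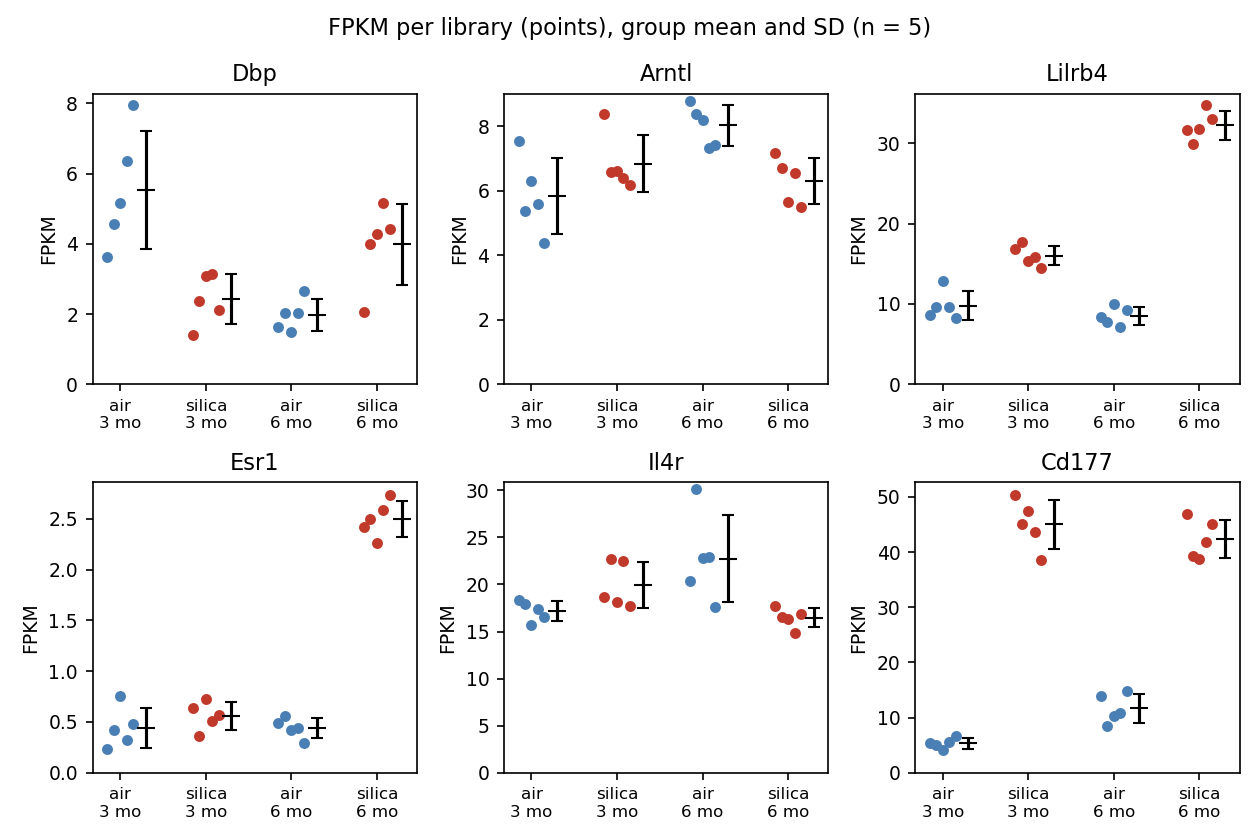
FPKM of 6 genes in each of the 20 libraries (points; blue air, red silica), with the mean and SD of each group of 5 beside them. Esr1 and Lilrb4 are set apart by the silica libraries of 6 months, at 2.26 to 2.74 and 29.9 to 34.8 FPKM, whereas Dbp, Arntl, Il4r and Cd177 also moved between the air groups.

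Esr1, which encodes estrogen receptor alpha, a hormone-activated transcription factor, was a second-tier gene, and its silica effect at 6 months was the largest of the 31 that rose. It stood at 0.238, 0.423, 0.755, 0.320 and 0.476 FPKM in air at 3 months and at 0.639, 0.363, 0.730, 0.509 and 0.565 in silica, with overlap. At 6 months air stood at 0.494, 0.562, 0.418, 0.438 and 0.292 and silica at 2.42, 2.50, 2.26, 2.58 and 2.74. All 5 silica libraries of 6 months lay above the other 15. Only silica libraries of 6 months and later reached an FPKM of 1 of Esr1. It thus passed the filter through the groups in which it was high, and this separation is not added support. The silica effect was 0.18 ± 0.28 (SE; limma adjusted p = 0.691) at 3 months and 1.68 ± 0.28 (adjusted p = 6.43e-06) at 6, or 3.20-fold on the log2(FPKM + 0.5) scale, which understates the change of low genes. The interaction was 1.49 ± 0.39 (adjusted p = 0.0973; 95% interval 0.71 to 2.28) and was not called in the fit of all 59 libraries. It rose by 1.51 in silica (adjusted p = 0.00100) and differed by 0.01 in air (0.983). The adjusted p of the interaction ran from 3.59e-05 to 0.194 over 30 alternatives, and the interaction was above 0 in each.

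Of the 5 nuclear receptor and steroid genes tested, Esr1 was the one called at 6 and not at 3 months. Srd5a1, a steroid 5-alpha-reductase, and Cited2, a transcriptional co-regulator, were called higher at both times, with effects of 0.72 and 0.67 and of 0.69 and 0.72. The median interaction of the list was -0.05.

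Several second-tier genes were not called at 3 months and were called higher at 6, none with a called interaction. Ifitm1, an interferon-induced membrane protein, stood at 22.7 to 27.9 FPKM in air and 21.6 to 28.6 in silica at 3 months, and at 20.5 to 24.9 in air and 29.4 to 33.3 in silica at 6. The silica libraries of 6 months lay above all others. Its effects were 0.02 and 0.49 (limma adjusted p = 0.924 and 0.00107), with an interaction of 0.47 ± 0.17 (adjusted p = 0.266). Mrgprx3, a Mas-related G protein-coupled receptor, had effects of -0.05 and 0.59 (adjusted p = 0.00322 at 6 months), and its interaction was 0.63 ± 0.22 (adjusted p = 0.266). Ppp5c, a protein phosphatase that works with Hsp90, had effects of 0.03 and 0.29 (adjusted p = 0.000171 at 6 months) and rose by 0.22 in silica from 3 to 6 months (adjusted p = 0.0454). Rrm1, the large subunit of ribonucleotide reductase, which makes DNA building blocks, had effects of 0.16 and 0.49 (adjusted p = 0.157 and 7.52e-06) and an interaction of 0.32 ± 0.11 (unadjusted p = 0.00692). It belongs to the cell cycle list, of which 3 of 7 tested members were called higher at 3 months (15.9% of tested genes) and 5 at 6 (21.2%), and none lower. Mki67, the proliferation marker, was called at both times (0.68 and 0.86).

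Other second-tier genes were lower at 6 months. Nova2, a neuronal and endothelial splicing factor, stood at 0.906 to 1.82 FPKM in air and 1.30 to 1.58 in silica at 3 months, and at 1.43 to 2.37 in air and 0.890 to 1.34 in silica at 6. The groups overlapped at 3 months and were separate at 6. Its effects were 0.08 and -0.54 (limma adjusted p = 0.744 and 0.00204), with an interaction of -0.62 ± 0.19 (adjusted p = 0.205). St8sia2, a polysialic acid transferase, had effects of -0.00 and -0.61 (adjusted p = 0.0123 at 6 months) and an interaction of -0.61 ± 0.27 (adjusted p = 0.464). The microRNA entry Mir3572 was listed at 0 in all 20 libraries except replicates 2, 3 and 4 of air at 6 months, at 10.6, 21.1 and 12.5 FPKM, so its interaction of -2.92 rests on those 3 air libraries. It passed the filter only through these and replicate 3 of silica at 18 months (14.1 FPKM).

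Il4r, the alpha chain of the receptors for interleukins 4 and 13, was next to the calls and also drew on the air groups. It stood at 18.3, 18.0, 15.7, 17.4 and 16.5 FPKM in air and 18.7, 22.7, 18.1, 22.5 and 17.7 in silica at 3 months. At 6 months air stood at 20.4, 30.1, 22.8, 22.9 and 17.6 and silica at 17.7, 16.6, 16.3, 14.9 and 16.9. The groups overlapped at both times, at 6 months through 1 air library. The effects were 0.20 ± 0.11 (SE; limma adjusted p = 0.209) and -0.43 ± 0.11 (0.00243), and the interaction was -0.64 ± 0.16 (adjusted p = 0.0583). In air Il4r rose by 0.38 (adjusted p = 0.0403), and in silica it differed by -0.26 (0.214). The interaction was called without replicate 5 of silica at 3 months, or without replicate 1 or replicate 5 of air at 6 months.

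Over all tested genes, 54 were called between the air groups of 6 and 3 months (4.23%), 41 higher (3.21%) and 13 lower (1.02%), and 21 between the silica groups (1.64%), 12 higher (0.939%) and 9 lower (0.704%). Of the 112 genes with an unadjusted interaction p under 0.05, 27 were among the air calls and 14 among the silica calls. The interaction is the silica difference between times minus the air difference, so such overlap is built in and carries no test. Without replicate 4 of air at 6 months the air calls numbered 28 and the called interactions 1. Over the single libraries left out in turn, the air calls ran from 27, without replicate 1 of air at 3 months, to 65. Called interactions ran from 0 to 7. Replicate 4 of air at 6 months held the highest levels in its group of Hpx and Apoc1, genes expressed strongly in liver. These rose by 1.99 and 2.35 between the air groups, and their part in the other air differences was not tested. Tgfb1, the cytokine transforming growth factor beta 1, which drives scarring, was one of the genes that moved in air. It stood at 2.13, 3.46, 2.75, 2.43 and 4.13 FPKM in air and 5.12, 4.25, 4.32, 5.13 and 4.49 in silica at 3 months, and at 4.75 to 5.52 in air and 4.97 to 5.59 in silica at 6. Air lay below silica at 3 months and overlapped it at 6. The effect was 0.60 (limma adjusted p = 0.000283) at 3 months and 0.06 (0.743) at 6, the interaction was -0.53 ± 0.17 (adjusted p = 0.230), and Tgfb1 rose by 0.70 in air (adjusted p = 0.000625) against 0.17 in silica (0.534). Clptm1l, a membrane protein linked to cell survival, had effects of 0.50 and -0.03 and rose by 0.60 in air (adjusted p = 0.000887). Sipa1l3, a regulator of cell polarity, had effects of 0.25 and -0.26 and rose by 0.50 in air (adjusted p = 0.00190).

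Ctgf (Ccn2), a matrix-associated growth factor and target of TGF-beta, moved in the silica groups. It stood at 14.0, 15.1, 18.3, 13.1 and 15.1 FPKM in air and 11.1, 9.60, 13.7, 16.4 and 12.3 in silica at 3 months, and at 17.1, 18.8, 17.9, 13.9 and 18.4 in air and 21.1, 19.0, 19.5, 21.9 and 20.8 in silica at 6. Silica tended below air at 3 months with overlap, and at 6 months the lowest silica library was above the highest air library. At 6 months silica and air did not overlap for 25.2% of tested genes. Its effects were -0.27 (limma adjusted p = 0.0781) and 0.25 (0.0784), neither called, and the interaction was 0.51 ± 0.15 (adjusted p = 0.169). The scaling bore on these effects. At 3 months silica was called lower after median centring (-0.35, limma adjusted p = 0.0177) and after quantile normalization (-0.39, 0.00628). The 6-month effect was then 0.19 and 0.08, not called. Without these scalings Ctgf rose by 0.70 in silica from 3 to 6 months (adjusted p = 5.61e-05) and differed by 0.18 in air (0.441).

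**Figure D3:**
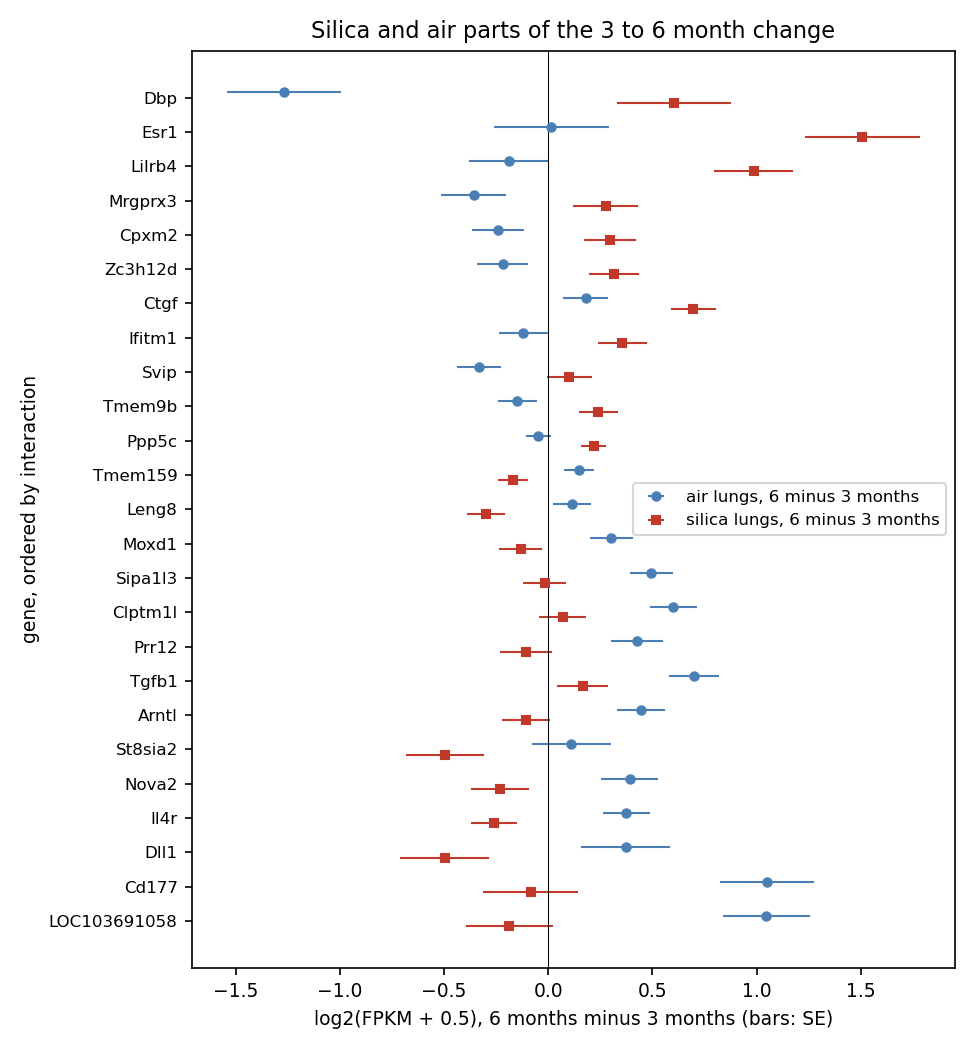
The difference between 6 and 3 months on log2(FPKM + 0.5) within air (blue circles) and within silica (red squares), with standard errors, for 25 of the 26 named genes (Mir3572 is left out). Lilrb4, Esr1 and Ctgf differ in silica (0.99, 1.51 and 0.70), whereas Dbp, Cd177, Tgfb1 and Clptm1l differ mainly in air (-1.27, 1.05, 0.70 and 0.60).

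Genes of the endothelial list, named for the lining of blood vessels, leaned lower at 6 months. The deposited data held 12 of the 26 genes listed, without Pecam1, Cdh5, Kdr, Tek or Vwf, so the vessel lining as a whole is not described. Of 12 tested, 2 were called lower at 3 months (2.35% of tested genes) and 8 at 6 months (6.42%), and 1 was called higher at both times. All 8 called lower at 6 were not called at 3, and the 2 called lower at 3 were not called at 6. The scaling bore on this: 4 and 9 were called lower after median centring, and 6 and 9 after quantile normalization. The median effect was -0.18 at 3 months and -0.35 at 6, against 0.07 and 0.05 for all tested genes, and the median interaction was -0.16. No member had a called interaction, and 4 had an unadjusted p under 0.05, all lower. Over all 1278 tested genes 112 (8.76%) had such a p, 58 of them lower. The list was chosen with earlier results of these data known, so its counts are no separate support. The summed FPKM of the list was 152 to 159 in air and 129 to 151 in silica at 3 months, and 139 to 163 in air and 108 to 126 in silica at 6. This sum is weighted to Ehd2, with a mean of 59.5 FPKM over the 20 libraries.

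Dll1, a Notch ligand, had the largest interaction of these, -0.87 ± 0.30 (SE; limma adjusted p = 0.266). It stood at 2.29 to 4.26 FPKM in air and 3.11 to 5.61 in silica at 3 months, and at 3.71 to 6.03 in air and 2.35 to 3.53 in silica at 6. The groups overlapped at 3 months and were separate at 6, with effects of 0.23 (adjusted p = 0.50) and -0.64 (0.0208). The 6-month call was lost without replicate 2 or 4 of either group of that time. Adm, the vasodilator peptide adrenomedullin, had effects of 0.14 and -0.36 (adjusted p = 0.0414 at 6 months) and an interaction of -0.50 ± 0.19 (unadjusted p = 0.0122). Lrrc32, which holds latent TGF-beta on the cell surface, had effects of -0.11 and -0.60 (adjusted p = 0.00182) and an interaction of -0.49 ± 0.21 (unadjusted p = 0.0256). Ehd2, a protein of caveolae, the membrane pits abundant in capillary endothelium, stood at 60.9 to 67.2 FPKM in air and 54.0 to 65.5 in silica at 3 months, and at 58.3 to 68.3 and 47.0 to 52.9 at 6. Every silica library of 6 months lay below all others. Its effects were -0.11 and -0.30 (adjusted p = 0.257 and 0.000404), with an interaction of -0.19 ± 0.09 (unadjusted p = 0.0447), and it fell by 0.24 in silica from 3 to 6 months (adjusted p = 0.0454). Rspo3, a Wnt-enhancing secreted protein, went the other way and was called higher at both times (0.85 and 0.98).

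**Figure D4:**
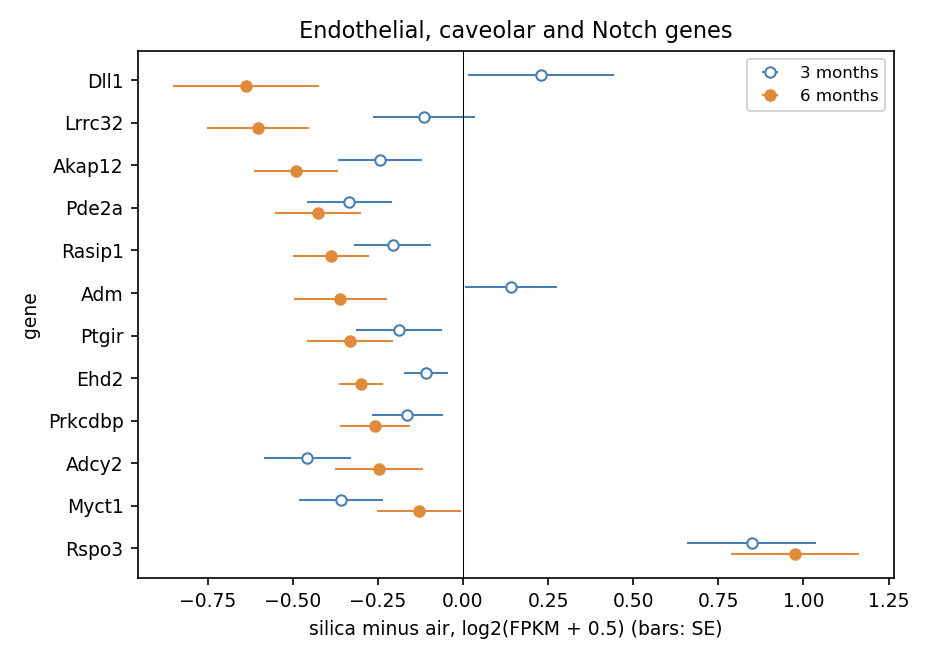
Silica minus air on log2(FPKM + 0.5), with standard errors, for the 12 tested genes of the endothelial list at 3 months (open blue) and 6 months (filled orange). The median moved from -0.18 to -0.35, Dll1 went from 0.23 to -0.64, and Rspo3 stayed above 0 at both times.

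In the remaining lists no interaction was called with limma in the fit of all 59 libraries. Alveolar type 2 genes were higher at both, 4 of 4 each time, with interactions from -0.02 to 0.18; Napsa, a surfactant-processing protease, had effects of 0.60 and 0.75 and Lpcat1, a surfactant lipid enzyme, 0.67 and 0.86. Lysosome genes were called higher for 8 of 10 at both times (median interaction 0.07), and macrophage and integrin genes for 5 of 8 and 6 of 8 (0.01). Over all tested genes 15.9% were called higher at 3 months and 21.2% at 6. The deposited data held 4 of 18 alveolar type 2, 12 of 32 lysosome and 8 of 23 macrophage and integrin genes listed. Matrix and TGF-beta genes were called lower for 1 of 17 at 3 months and 7 of 17 at 6, where 2.35% and 6.42% of tested genes were. At each time 3 were higher, near the shares of 15.9% and 21.2% over tested genes; after quantile normalization 6 and 10 were lower. Their interactions with an unadjusted p under 0.05 went both ways, Ctgf and Cpxm2, a carboxypeptidase-like protein (0.40 and 0.93), up and Tgfb1 and Lrrc32 down.

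Of 14 genes of the NF-kB, TNF and interferon list, 4 were called higher at 3 months (15.9% of tested genes) and 2 at 6 (21.2%), with 1 lower at 6 (6.42%). The 3-month count was 1 without replicate 2 of silica at 3 months and 0 after median centring. Il4r, Tnfaip3, a brake on NF-kB (interaction -0.28 ± 0.10, unadjusted p = 0.00611), and Relb, an NF-kB subunit (-0.33 ± 0.15, unadjusted p = 0.0287), leaned down. Ifitm1 leaned up (0.47 ± 0.17, limma unadjusted p = 0.00608). Of the 14 interactions 6 were above 0, and the median was -0.05. Of 13 lipid handling genes 3 were called higher at each time, near the shares over tested genes of 15.9% at 3 months and 21.2% at 6. None was called lower at 3 months and 3 at 6, where 2.35% and 6.42% of tested genes were. Of 8 T and NK cell genes 1 was called higher at 3 months (15.9% of tested genes), and at 6 months 2 higher (21.2%) and 2 lower (6.42%). After quantile normalization the higher calls were 0 at both times. Among markers of other cells, none of 4 B cell genes or 3 erythrocyte genes was called at either time. For striated muscle, 1 of 8 genes was called lower at each time and 1 higher at 6 months. The same shares over tested genes apply to these lists. The summed muscle level was uneven between libraries, 14.7 to 147 FPKM in air and 18.6 to 193 in silica at 3 months, against 11.5 to 32.7 and 12.2 to 33.2 at 6, and its part in the interactions was not tested.

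The other 39 libraries gave a separate look at whether late effects lasted. For each gene the mean silica effect at 9, 12 and 18 months minus that at 1 month was taken, which shares no library with the interaction. It was called for 19 genes (1.49%), 6 higher (0.469%) and 13 lower (1.02%). Of the 3 called interactions Lilrb4 was called here too, at 0.96 ± 0.22 (SE; limma adjusted p = 0.00961), while Dbp (-0.22 ± 0.32, adjusted p = 0.740) and LOC103691058 (-0.42 ± 0.24, 0.313) were not. Esr1 was called at 2.33 ± 0.32 (adjusted p = 3.04e-06). Its silica effect was -0.00 at 1 month, then 2.57, 2.40 and 2.01 at 9, 12 and 18 months, and its silica libraries stood at 0.173 to 0.522 FPKM at 1 month, 3.58 to 7.23 at 9 months, 0.469 to 8.54 at 12 and 2.08 to 4.96 at 18. Lilrb4 had effects of 0.31 at 1 month (adjusted p = 0.349) and 1.61, 0.99 and 1.22 at the later times. The 12-month values include replicate 3 of silica, which stood at 0.469 FPKM of Esr1 and 9.31 of Lilrb4, where the air libraries of that time reached 0.458 and 15.1. Without it the contrast was 2.52 ± 0.19 for Esr1 and 1.07 ± 0.16 for Lilrb4, and 123 genes were called in this contrast, among them Nova2 (-0.58, adjusted p = 0.0114), which had not passed with it (-0.54 ± 0.16, 0.0544).

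Of the 50 second-tier genes, 38 (76%) had the sign of their interaction in this separate contrast, against 60.6% of all tested genes and 77.5% of the 191 genes called at 6 and not at 3 months. The share was thus no higher in the second tier than in that wider class. An unadjusted p under 0.05 was reached by 16 of the 50, all in the direction of the interaction, and 1, Esr1, was called. Of the 191, 60 reached it in the direction of the interaction and 1 against it, and of all 1278 tested genes 193 and 70. Among those with the opposite sign were Ppp5c (-0.09), Svip (-0.18), which inhibits protein degradation at the endoplasmic reticulum, and Zc3h12d (-0.07), a CCCH zinc-finger protein. Mir3572 (0.32 ± 0.72) was another, and each of these lay within 1.5 standard errors of 0. Zfp324, with 0.13 ± 0.07 against an interaction of -0.24, lay beyond that. Ctgf, with 0.14 ± 0.13 (limma adjusted p = 0.550), did not differ beyond its error there.

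**Figure D5:**
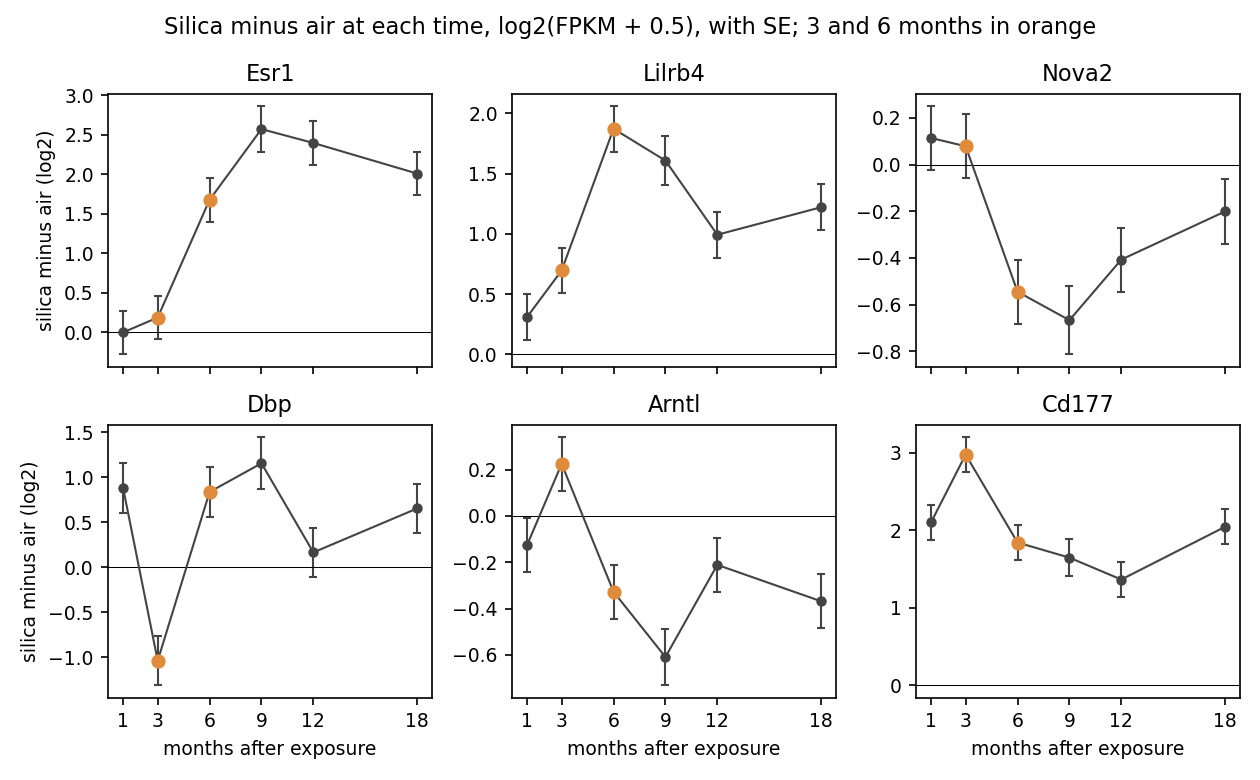
Silica minus air on log2(FPKM + 0.5), with standard errors, against months after exposure (1 to 18) for 6 genes, with 3 and 6 months in orange. Esr1 lies near 0 at 1 and 3 months (-0.00 and 0.18) and between 1.68 and 2.57 from 6 months on, while Dbp is below 0 at 3 months only (-1.04).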

How the data were processed

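Lung RNA of 59 rats (12 groups) was sequenced, 1 library each. The authors deposited 1 table of FPKM, read here as normalized values and not counts. Per the submitters' processing notes the tools included Cufflinks 2.1.1, TopHat2 2.0.9, Bowtie2 2.2.9, bcl2fastq 2.19 and Trimmomatic 0.35; their settings and the genome build are not given in the sources used here. Of 2888 entries 1 was incomplete and left out, and 2061 of the other 2887 matched RefSeq names. All columns of values matched a sample.

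Values were log2(FPKM + 0.5), for the 1278 entries at or above an FPKM of 1 in 4 or more libraries. limma 3.58.1 (R 4.3.3, trended empirical Bayes) fitted all 12 groups at once with 47 residual degrees of freedom, and p-values were adjusted by the Benjamini-Hochberg method over the 1278, all two-sided. Fold changes are on that log2 scale, which understates changes of low genes, and FPKM keep no read counts, so counting error is not known. Figures used Python 3.11.15 and matplotlib 3.10.9. The fit was tested on simulated data. Alternatives were other pseudocounts, filters, scalings, weights and sets of libraries.

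Genes named are those called, filled up to 24 with the smallest interaction p among genes with a symbol, plus Cd177, Esr1, Lilrb4, Dbp, the 8 largest of the second tier and the 2 to 4 list members with the smallest interaction p; LOC103691058, LOC100909700 and further list members such as Hcst, Lilrb3, Napsa, Rspo3 and Mki67 were named after their values were seen. The members and the 19 gene lists were chosen with earlier results of these data known.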

Additional observations from a re-analysis of the deposited data

Results flagged for a closer look

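The silica effect differed between 3 and 6 months, by a test of that difference with limma, for Dbp (interaction 1.87), Lilrb4 (1.18) and LOC103691058 (-1.23); the values in every library are given above.

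In 3 of 101 groups of 5 libraries tested over the 26 named genes (2.97%), a single library stood far from the other 4, with a gap to its neighbour of over 0.71 of the group's range. Chance alone marks about 1 in 20 groups. These were the highest library of Arntl in silica at 3 months (8.39 FPKM), of Leng8 in air at 3 months (16.5 FPKM) and of Ppp5c in silica at 6 months (11.0 FPKM).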

How the results depend on the processing

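No paired analysis was possible because the replicate numbers follow accession order and tie no rats together. For the 56 named-gene results that were recomputed (interactions and called effects), none changed sign; of 1729 values, 1621 kept their side of the threshold, 74 lost it and 34 gained it. Uncalled effects near 0 did turn with the scaling, at 3 months Ppp5c, Ifitm1, Tmem9b and Nova2 with median centring and Ppp5c, Ifitm1, Tmem9b and Tmem159 with quantile normalization, and Tgfb1 at 6 months with the latter (0.06 to -0.03). The cause of the following moves was not tested.

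The 3 called interactions became 7 with quantile normalization, 16 with only the 4 groups of 3 and 6 months and 30 with array quality weights. Late-onset genes, 0 as reported, numbered 1 with median centring (Ppp5c), 2 with quantile normalization (Esr1 and Il4r), 5 with the 4 groups and 14 with weights. Early-only genes numbered 1 without the filter and 4 with weights, and the second tier 83 with the 4 groups and 94 with weights. Calls between the silica groups of 6 and 3 months were 9 without the filter, 65 with the 4 groups and 119 with weights. With weights, calls were 536 for silica against air at 6 months, 110 between the air groups and 164 for months 9, 12 and 18 against month 1, which were 9 without the filter.

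Leaving out single libraries, the 20 of 3 and 6 months or replicate 3 of silica at 12 months, gave 0 to 7 called interactions (0 without replicate 1 of silica at 3 months or replicate 4 of silica at 6 months). It gave 163 to 258 calls at 3 months and 292 to 385 at 6, 6 to 33 between silica groups, 27 to 65 between air groups, and 17 to 123 for months 9, 12 and 18 against month 1. There were 0 to 2 late-onset, 0 to 1 early-only and 39 to 56 second-tier genes, and 146 to 231 called at 6 and not at 3. Without replicate 5 of silica at 3 months, which stands apart, 4 interactions were called, Il4r being late-onset.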

Other observations

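Some genes expressed strongly in liver differed between the air groups; they were picked after their values were seen and are no tested group. Hpx, the haem carrier hemopexin, stood at 0.832 to 1.48 FPKM in air at 3 months and at 3.96, 3.62, 4.49, 14.9 and 6.18 in air at 6, and rose by 1.99 on the log2 scale (limma adjusted p = 0.00279). Apoc1, an apolipoprotein, stood at 0.721 to 5.61 and at 8.17, 6.85, 7.54, 25.4 and 10.5 FPKM in the same groups, a rise of 2.35 (adjusted p = 0.0150). Plg (1.72, adjusted p = 0.0115) rose too, while Apoc4 (0.71 ± 0.41) and Hamp (0.56 ± 0.47) did not pass. Replicate 4 of air at 6 months was the highest of its group for Hpx and Apoc1. In silica, Hpx stood at 2.13 to 3.65 FPKM at 3 months and 2.61 to 5.70 at 6, and its interaction of -1.46 ± 0.61 (adjusted p = 0.402) was not called.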
